A study of Homo sapiens
Mus musculus with 3 samples.

Results

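The 10 genes described here are mouse mRNAs encoded by the mitochondrial genome: mt-Nd1 (ENSMUSG00000064341), mt-Nd2 (ENSMUSG00000064345), mt-Nd3 (ENSMUSG00000064360), mt-Nd4 (ENSMUSG00000064363), mt-Nd5 (ENSMUSG00000064367), mt-Cytb (ENSMUSG00000064370), mt-Co1 (ENSMUSG00000064351), mt-Co2 (ENSMUSG00000064354), mt-Co3 (ENSMUSG00000064358) and mt-Atp6 (ENSMUSG00000064357). They were picked by Ensembl identifier from the 27998 mouse genes of the tables, which list 60736 human and mouse genes in all, and their reads were followed in the wells of the ICELL8 chip that held a mouse cell. The study mixed 4 lymphocyte lines in equal parts, the human T-cell lines Jurkat and TALL-104, the mouse T-cell lymphoma EL4 and the mouse hybridoma IVA12, and sequenced the ends of their mRNAs in single nanowells. Its methods list IL-2 in the culture medium of TALL-104 and 2-mercaptoethanol in that of EL4. Of the 3 libraries, 2 were made with the official 3'DE protocol (3'DE 1 and 3'DE 2) and 1 with 3'DE-UMI, a modified protocol in which molecules can be counted by unique molecular identifiers (UMIs). The sample sheet of the study lists 3'DE 1 under another cell mixture than the other two, so that for 3'DE 1 mixture and library cannot be told apart.

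Mitochondrial DNA encodes a small set of proteins, and all of them are core subunits of oxidative phosphorylation. The Nd proteins belong to complex I, which takes electrons from NADH, Cytb to complex III, the Co proteins to complex IV, which passes electrons to oxygen, and Atp6 to complex V, which makes ATP. The mRNAs are cut from long transcripts of the mitochondrial genome, and most receive a short poly(A) tail in the organelle, which is what oligo-dT primers catch. The share of such mRNAs in a cell's reads is a common measure of cell quality in single-cell work. The nuclear genome holds copies of stretches of mitochondrial DNA, so a read shared with such a copy may have been lost or assigned elsewhere, and levels of these genes are uncertain to that extent.

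The read tables held 1704, 1518 and 1560 barcodes for 3'DE 1, 3'DE 2 and 3'DE-UMI, where the labels give 1684, 1498 and 1465 processed wells, and totals of 35581264, 109702878 and 44883618 reads. Wells with at least 1000 reads and 200 genes were kept, and those with at least 10% of reads from the other species were set aside as mixed. This left 922, 773 and 700 mouse wells, with a median of 23594.5, 31360.0 and 31281.5 mouse reads. They formed 2 clusters on genes that excluded the members, cluster 1 with 474, 497 and 470 wells and cluster 2 with 448, 276 and 230. No symbols come with the identifiers, so markers of EL4 and IVA12 could not be checked and the clusters are called by number. Between 387 and 481 barcodes of kept wells recurred in each pair of libraries, and 150 in all 3.

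The members together took a small part of the mouse reads, and a larger part in cluster 2 than in cluster 1 in each library. In cluster 1 the median share per well was 1.38% in 3'DE 1, 1.81% in 3'DE 2 and 1.44% in 3'DE-UMI. In cluster 2 it was 1.79%, 2.31% and 2.49%. Cluster 1 was thus lower by 0.41, 0.491 and 1.05 percentage points, a mean difference of -0.65 points with a standard deviation of 0.347 over the 3 libraries. The groups overlapped across libraries, since the median of cluster 1 in 3'DE 2 lay above that of cluster 2 in 3'DE 1. With 3 libraries no exact two-sided sign test can give a p below 0.25, so none was run.

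**Figure D1:**
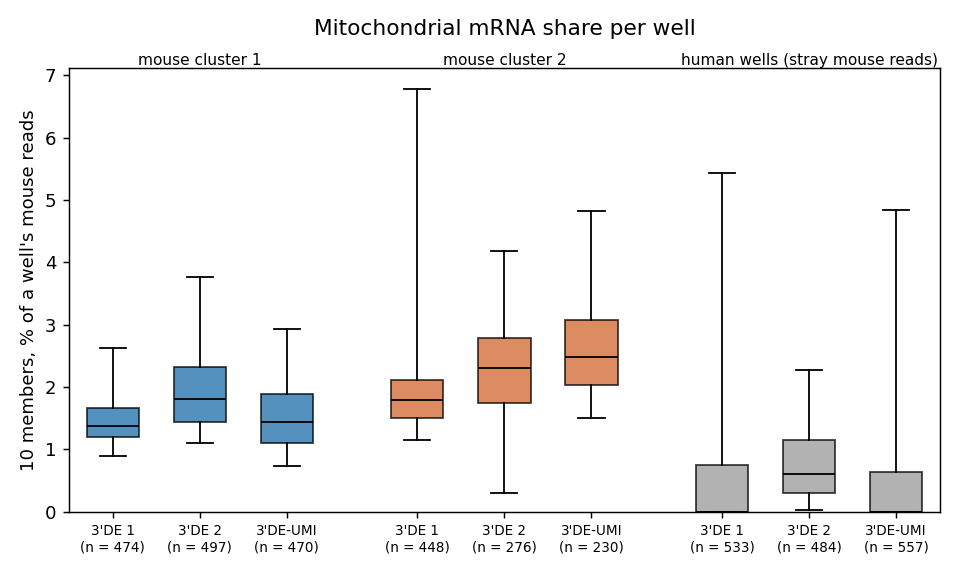
Share of a well's mouse reads (%, vertical axis) taken by the 10 mitochondrial mRNAs in wells of mouse cluster 1 (blue), mouse cluster 2 (orange) and human wells (grey) of each library. Boxes give the quartiles and the median, and whiskers the 5th and 95th percentiles over wells. Medians of cluster 2 (1.79% to 2.49%) lie above those of cluster 1 of the same library (1.38% to 1.81%). In summed reads, most of this gap lay in mt-Cytb.

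Between the protocols the share did not move in a single direction. In cluster 1, 3'DE-UMI lay 0.156 points below the mean of the 3'DE libraries, which themselves had a standard deviation of 0.31 points. In cluster 2, it lay 0.44 points above them, beside a standard deviation of 0.367 points, and this turned to -0.204 points when the UMIs of that library were used instead of its reads. Against 3'DE 1 alone the difference was 0.063 points in cluster 1 and 0.7 in cluster 2, and against 3'DE 2 alone it was -0.375 and 0.181.

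Single wells with a high mitochondrial share were rare in both clusters. More than 5% of mouse reads came from the members in 12, 16 and 5 wells of cluster 1 and in 28, 11 and 11 wells of cluster 2, in the order 3'DE 1, 3'DE 2 and 3'DE-UMI. These wells were shallower than the rest in 5 of the 6 groups. In cluster 2 of 3'DE 1, for example, median depth was 6976 mouse reads and 1439 genes in the 28 wells, against 20785 reads and 2698 genes in the other 420. The exception was cluster 2 of 3'DE 2, where the 11 wells had a median of 24231 reads against 21449. In that group the share rose with depth, from a median of 1.39% in the quartile of shallowest wells to 2.58% in that of the deepest, with a Spearman's rho of 0.43 over 276 wells, while rho lay between -0.27 and -0.02 in the other groups. The same group held 25 wells under 0.5%, with a median of 4617 mouse reads, 709 genes and 3.68% of reads from human genes, against 1.84% of human reads in its wells up to 5%. The other groups held between 0 and 5 such wells.

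By the reads assigned to them, the 10 members split into 6 abundant and 4 sparse genes. These names refer to reads, not to the mRNA content of the cells. Loss of reads to nuclear copies of mitochondrial DNA was not tested. The level of each is given below in CPM, the reads of a gene summed over the wells of a library and cluster, brought to a fixed total of mouse reads and scaled with the TMM factors of edgeR. These are numbers of 3' end reads, and with no transcript lengths at hand they rank the reads of the genes, not molecules per length. mt-Cytb, mt-Nd1, mt-Nd2, mt-Nd4, mt-Nd5 and mt-Co1 lay between 302 and 15321 CPM in the 6 sums of reads. mt-Nd3, mt-Co2, mt-Co3 and mt-Atp6 lay between 0.243 and 11.3 CPM. The lowest value of the first set was 26.8 times the highest of the second, so in reads no library or cluster brought them together. In the UMIs of 3'DE-UMI the gap was smaller, with 369 CPM for mt-Nd2, the lowest of the first set in cluster 1, against 82.6 for mt-Atp6, and 400.5 for mt-Nd5 against 155 for mt-Atp6 in cluster 2, both without the TMM scaling. These are 4.47 and 2.59 times. By reads, the sparse 4 made up between 0.0914% and 0.130% of the members' reads.

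**Figure D2:**
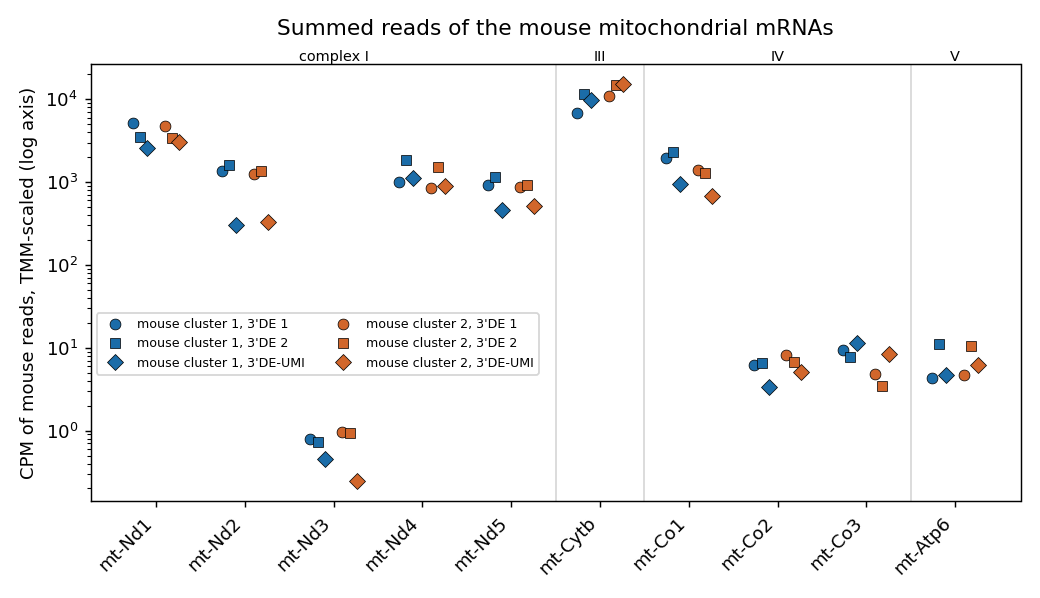
Level of each member in CPM (TMM-scaled, log axis), with points for the 3 libraries in mouse cluster 1 (blue) and 2 (orange) and members ordered by respiratory complex. The abundant 6 lie at 302 CPM or more and the sparse 4 at 11.3 CPM or less, and the diamonds of mt-Nd2 (3'DE-UMI) lie below its other points.

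Within the abundant set, mt-Cytb came first and mt-Nd1 was next in every library and cluster. mt-Cytb alone made up 39.5% of member reads in cluster 1 of 3'DE 1 and 73.7% in cluster 2 of 3'DE-UMI, the lowest and the highest of the 6 sums. The order of mt-Co1, mt-Nd4, mt-Nd2 and mt-Nd5 behind them changed between libraries. mt-Co1 came right behind mt-Nd1 in 3 of the sums and mt-Nd4 in the other 3, and the last place went to mt-Nd5 in 3 sums, mt-Nd2 in 2 and mt-Nd4 in 1. Of these 4, mt-Co1 lay above mt-Nd5 in all 6 sums, and each of the other pairs changed its order between sums. Among the sparse 4, mt-Nd3 was lowest throughout, and mt-Co2, mt-Co3 and mt-Atp6 changed places.

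Among the complex I subunits, mt-Nd1 had 5105, 3482 and 2579 CPM in cluster 1 of 3'DE 1, 3'DE 2 and 3'DE-UMI, and 4809.6, 3446 and 3026 CPM in cluster 2. The library separated these values more than the cluster did, with 3'DE 1 highest and 3'DE-UMI lowest in both. mt-Nd2 had 1371, 1603 and 302 CPM in cluster 1 and 1248, 1350.0 and 328 CPM in cluster 2. Both values of 3'DE-UMI lay below all 4 values of the 3'DE libraries, and the clusters overlapped.

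mt-Nd4 had 1002, 1848 and 1113 CPM in cluster 1 and 847, 1507 and 903 CPM in cluster 2. It was higher in cluster 1 in each library, and 3'DE 2 was the highest library in both clusters. mt-Nd5 had 927, 1146 and 461 CPM in cluster 1 and 877, 912 and 513 CPM in cluster 2, where 3'DE-UMI was again lowest in both. mt-Nd3, the smallest of these levels, had 0.781, 0.736 and 0.451 CPM in cluster 1 and 0.956, 0.931 and 0.243 CPM in cluster 2. It rests on 9, 27 and 8 reads in cluster 1 and on 8, 16 and 3 in cluster 2, too few to order the libraries.

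mt-Cytb, the sole member from complex III, had 6792.5, 11648 and 9828 CPM in cluster 1 and 11062, 14704 and 15321 CPM in cluster 2. Cluster 2 was higher in each library, although the value of cluster 2 in 3'DE 1 lay below that of cluster 1 in 3'DE 2. For complex IV, mt-Co1, the catalytic subunit, had 1976, 2309.6 and 942 CPM in cluster 1 and 1402, 1280.4 and 670.5 CPM in cluster 2. Here cluster 1 was higher in each library, and 3'DE-UMI was lowest in both clusters.

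mt-Co2 had 6.16, 6.52 and 3.33 CPM in cluster 1 and 8.13, 6.75 and 5.11 CPM in cluster 2. mt-Co3 had 9.29, 7.80 and 11.3 CPM in cluster 1 and 4.78, 3.49 and 8.36 CPM in cluster 2. mt-Co3 was the sparse member that was higher in cluster 1 in all libraries, and its 3'DE-UMI value was the highest in both clusters. mt-Atp6, the complex V subunit through which protons pass, had 4.34, 11.04 and 4.74 CPM in cluster 1 and 4.66, 10.4 and 6.17 CPM in cluster 2. Its values in 3'DE 2 stood above those of both other libraries, and the clusters overlapped. The orders of these sparse genes rest on few reads per sum. They had 59 to 239 reads for mt-Co2, 40 to 286 for mt-Co3 and 39 to 405 for mt-Atp6.

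The comparison of the mouse clusters was fitted across all mouse genes with the library as a block (edgeR quasi-likelihood test, two-sided, Benjamini-Hochberg adjustment, threshold 0.05). All 10 members passed the filter on low counts, and 2 passed the threshold, in opposite directions. mt-Co1 was higher in cluster 1, by 0.60 on the log2 scale (standard error 0.17, edgeR adjusted p = 0.023), which is 1.51-fold. mt-Cytb was lower in cluster 1, with a log2 difference of -0.58 (standard error 0.18, edgeR adjusted p = 0.0287), so it was 1.49-fold higher in cluster 2. Of the 12097 genes tested, 38.9% passed, and of the 11194 not used for clustering 38.2%, so the members' 2 of 10 did not exceed the background. By direction, 19.8% of genes passed as higher and 19.2% as lower in cluster 1. The median log2 difference was 0.05 over the members and -0.04 over all genes. Of all calls, 50.8% were higher in cluster 1 with TMM factors and 39.4% with library totals alone, where 39.5% of genes passed and the median of all genes moved to -0.26.

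**Figure D3:**
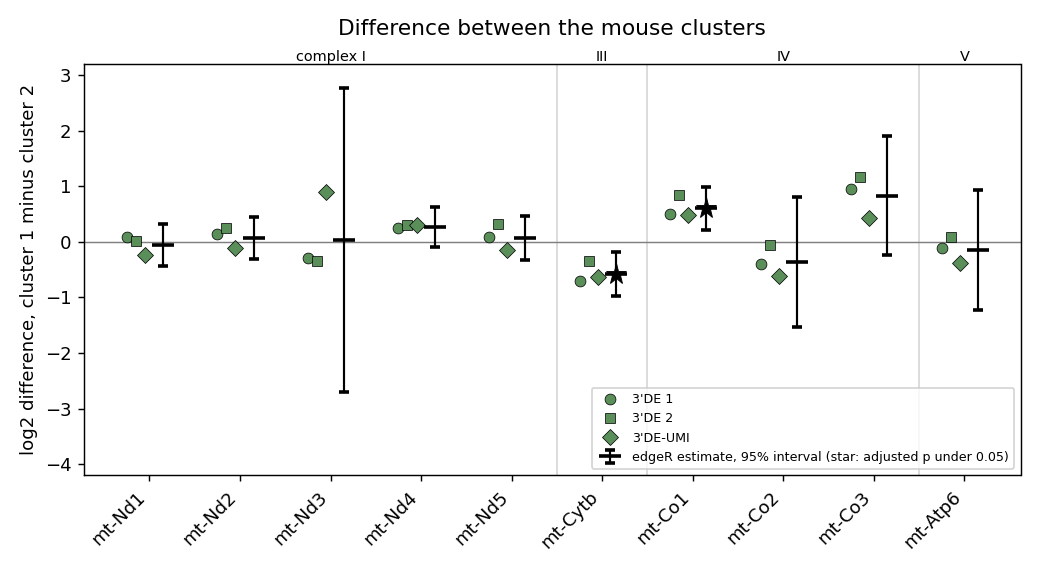
Log2 difference of each member, cluster 1 minus cluster 2, for each library (green points) and as the edgeR estimate with its 95% interval (black). Stars mark mt-Co1 at 0.60 and mt-Cytb at -0.58, which passed the threshold, and the intervals of the sparse members are the widest.

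Neither call held under every setting. mt-Co1 missed the threshold with library totals alone (edgeR adjusted p = 0.0829), without 3'DE 1 (0.0555), without 3'DE 2 (0.171) and without the library block (0.349). mt-Cytb missed it with UMI counts (edgeR adjusted p = 0.0611), without 3'DE 1 (0.103), 3'DE 2 (0.0746) or 3'DE-UMI (0.121), and without the block (0.327). The direction of both was the same in each of these fits.

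The other 8 members gave differences whose 95% intervals included 0. The abundant complex I subunits were bounded most closely, with -0.06 (interval -0.44 to 0.32) for mt-Nd1, 0.07 (-0.31 to 0.45) for mt-Nd2, 0.26 (-0.10 to 0.63) for mt-Nd4 and 0.07 (-0.33 to 0.46) for mt-Nd5. The sparse members allowed much larger differences, up to 1.90 for mt-Co3 (estimate 0.83, adjusted p = 0.195 in edgeR) and 2.76 for mt-Nd3 (estimate 0.03). With UMI counts in place of the reads of 3'DE-UMI, mt-Co3 also passed the threshold (0.78, edgeR adjusted p = 0.0318), beside 47.5% of genes.

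The opposite differences of mt-Cytb and mt-Co1 can be read as a ratio within each library, which depends on no scaling. This ratio was chosen after the values had been seen. Reads of mt-Cytb outnumbered those of mt-Co1 by 3.44 to 1 in cluster 1 of 3'DE 1, by 5.04 in 3'DE 2 and by 10.4 in 3'DE-UMI. In cluster 2 the ratio was 7.89, 11.5 and 22.9. The ratio itself changed severalfold between libraries, but cluster 2 stood above cluster 1 by 2.29, 2.28 and 2.19 times, a mean log2 difference of 1.17 with a standard deviation of 0.04 (n = 3). It shows unequal change of the pair and does not tell which of them changed. For mt-Nd2 to mt-Nd1 the ratio of cluster 2 to cluster 1 was 0.966, 0.851 and 0.925.

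The protocols were compared in each cluster with 3 sums, 2 from 3'DE and 1 from 3'DE-UMI, so that 1 residual degree of freedom was left and the lone library was taken to vary like the others. In cluster 1, mt-Nd2, mt-Co1 and mt-Nd5 were lower in 3'DE-UMI. mt-Nd2 fell by 2.29 on the log2 scale (standard error 0.34, edgeR adjusted p = 0.00168), which made it 4.91-fold higher in 3'DE. mt-Co1 fell by 1.18 (standard error 0.31, edgeR adjusted p = 0.0275) and mt-Nd5 by 1.16 (standard error 0.32, edgeR adjusted p = 0.035). These are 3 of 10 members, beside 11.2% of 11787 genes that passed in either direction and 7.13% that passed as lower. The median log2 difference was -0.73 over the members and -0.05 over all genes. Thinning wells to 2000 mouse reads, with shallower wells left out, left mt-Nd2 alone past the threshold, beside 11.5% of genes. Against 3'DE 2 alone, which the sample sheet lists under the same mixture as 3'DE-UMI, the differences were -2.38 for mt-Nd2, -1.27 for mt-Co1 and -1.28 for mt-Nd5, with no test. With UMI counts mt-Co1 stood at -0.18 (edgeR adjusted p = 0.825) and mt-Nd5 at -1.21 (edgeR adjusted p = 0.0668).

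In cluster 2 none of the 10 members passed the threshold in edgeR, beside 2.41% of 11631 genes. 1 member, mt-Nd2, had an unadjusted p under 0.05, and DESeq2, which called 2.83% of genes, called that gene too (adjusted p = 0.000168). Its log2 difference of -1.98 (95% interval -3.37 to -0.59, edgeR adjusted p = 0.112) was close in size to that in cluster 1, and it passed in edgeR with library totals alone (adjusted p = 0.000379, beside 2.15% of genes), which moved the median of all genes from -0.03 to 0.18. mt-Co1 stood at -1.0 (-2.35 to 0.35) and mt-Nd5 at -0.80 (-2.06 to 0.46). Estimates of the other members ran from -1.91 for mt-Nd3 to 1.02 for mt-Co3, and all their intervals included 0.

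**Figure D4:**
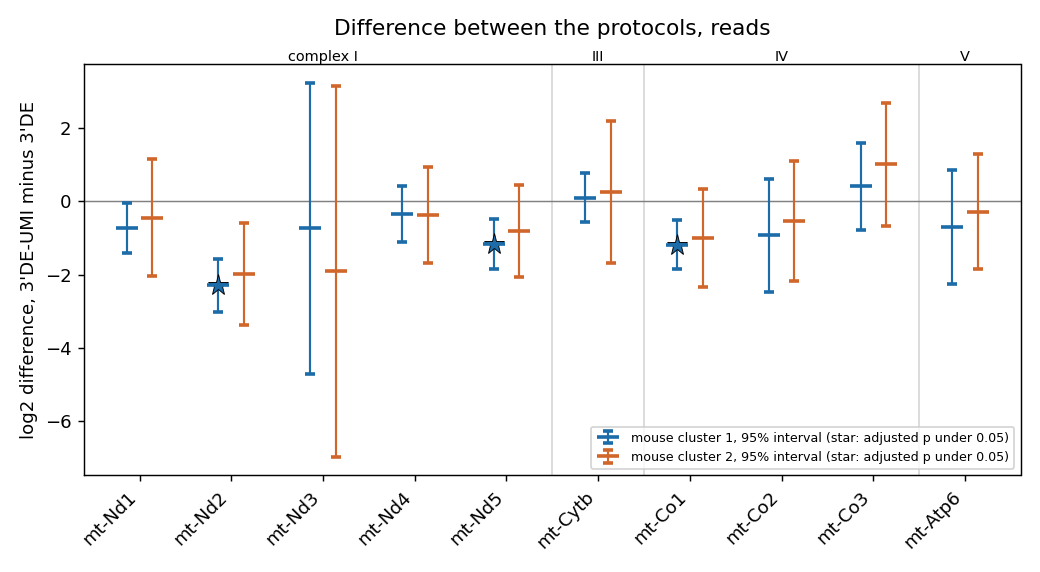
Log2 difference of each member in reads, 3'DE-UMI minus 3'DE, in mouse cluster 1 (blue) and 2 (orange), with 95% intervals from edgeR. Stars mark the members that passed the threshold, mt-Nd2 at -2.29, mt-Co1 at -1.18 and mt-Nd5 at -1.16, all in cluster 1.

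A test of the difference itself found no member whose cluster difference depended on the protocol. The interaction called 0 of 10 members in edgeR, with 0 at an unadjusted p under 0.05 and 0 of 9 in DESeq2, beside 2.13% of 13254 genes. For mt-Nd2 the interaction was -0.30 (95% interval -1.0 to 0.40), so the protocol differences of the clusters were not shown to differ.

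Within a library and cluster, detection of the members broadly followed their levels, but between libraries it did not always. Only wells with at least 5000 mouse reads were thinned, to 5000. These were 459, 477 and 456 wells in cluster 1 and 427, 235 and 224 in cluster 2. In them, mt-Cytb was found in all wells of all 6 groups. Over all wells it was found in 98.6% in cluster 2 of 3'DE 2, 99.8% in cluster 1 of 3'DE-UMI and 100% elsewhere. In cluster 1, mt-Nd4 had 1002 CPM in 3'DE 1 and was found in 97.2% of its thinned wells. In 3'DE-UMI it had 1113 CPM and was found in 82.7%. mt-Nd2 was found in 98.0% and 96.9% of thinned cluster 1 wells of 3'DE 1 and 3'DE 2, and in 47.4% of those of 3'DE-UMI. For mt-Nd5 the values were 92.8%, 89.1% and 52.2%. In cluster 2, mt-Nd2 was found in 98.4%, 94.0% and 57.6% of wells and mt-Nd5 in 94.8%, 80.9% and 70.5%. 3'DE-UMI thus had the lowest detection of both genes in both clusters, also before thinning, at 63.4% of cluster 1 wells for mt-Nd2. Its wells also held the fewest mouse genes of any kind. The median in cluster 1 was 1254.5 genes, against 2977 in 3'DE 1 and 2610 in 3'DE 2. In cluster 2 it was 1637.5, against 2667 and 2294. The part of this in the lower detection was not tested. The sparse mt-Co2, mt-Co3 and mt-Atp6 were found in 1.53% to 6.38% of thinned wells, and mt-Nd3 in at most 1.17%.

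Human wells, which should lack these transcripts, show how many stray reads the members receive. Their median of stray mouse reads was 36 in 3'DE 1, 1010 in 3'DE 2 and 206 in 3'DE-UMI. mt-Cytb had a read in 31.9%, 78.7% and 28.7% of them. The members took 0.997%, 0.550% and 0.622% of the stray mouse reads, less than the 1.49% to 2.58% of the summed reads in mouse wells. Their median share per human well was 0 in 3'DE 1 and 3'DE-UMI, where 46.3% and 40.9% of human wells held a member read, and 0.607% in 3'DE 2. A single well gave 1045 of the 3302 stray member reads of 3'DE 1, and without it the pooled share there was 0.689%. mt-Nd4 made up 17.7% of the stray member reads in human wells of 3'DE 2, against 8.38% and 6.49% of the member reads in the mouse clusters of that library, and was found in 71.5% of those human wells. In 3'DE 1 and 3'DE-UMI it made up 4.27% and 2.93% of the stray member reads. Across the 484 human wells of 3'DE 2 its reads had a Spearman's rho of 0.55 with the other mouse reads and 0.57 with the human reads of the well. The same values were 0.57 and 0.50 for mt-Cytb and 0.43 and 0.44 for mt-Nd1. The part of human mitochondrial reads in this was not tested.

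The UMI table of 3'DE-UMI gave a second count of the same wells, made by the authors with other software. The abundant members had 6.45 to 15.9 reads per UMI, with 15.9 for mt-Cytb, 14.3 for mt-Nd1, 14.1 for mt-Nd5, 10.7 for mt-Nd4, 9.29 for mt-Nd2 and 6.45 for mt-Co1. The median of 3300 other mouse genes with at least 100 UMIs was 13.5, with a 5th percentile of 5.07. The sparse members stood apart from both. mt-Atp6 had 160 reads and 273 UMIs, mt-Co3 303 reads and 183 UMIs, mt-Co2 122 reads and 90 UMIs, and mt-Nd3 11 reads and 4 UMIs.

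mt-Atp6 had more UMIs than reads in 130 of 700 mouse wells and a UMI but no read in 100. Of the 3300 other genes, 24 had fewer reads than UMIs and 1.70% had under 2 reads per UMI. By UMIs the sparse 4 made up 1.42% of the members in cluster 1 and 1.48% in cluster 2, against 0.130% and 0.0957% by reads. The fitted protocol differences of 3 of them moved accordingly when UMIs replaced reads. In cluster 1, mt-Atp6 went from -0.70 to 3.51 on the log2 scale (edgeR adjusted p = 0.000648), mt-Co3 from 0.41 to 3.14 (edgeR adjusted p = 0.00046) and mt-Co2 from -0.92 to 2.31 (edgeR adjusted p = 0.0116), where 3.6% of genes passed as higher. These last differences set UMIs of 1 program against reads of another, and the part of the programs was not tested.

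**Figure D5:**
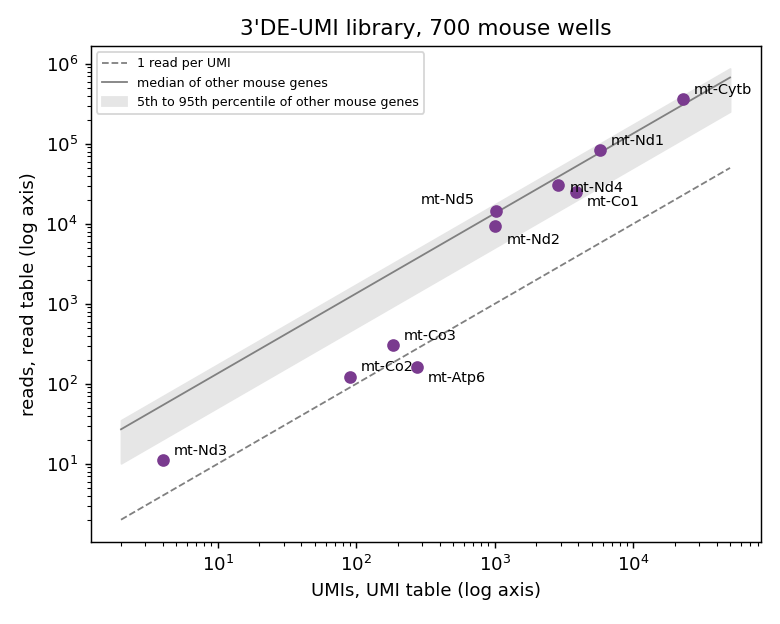
Reads (read table) against UMIs (UMI table) of each member over the 700 mouse wells of 3'DE-UMI, both on log axes, with the dashed line at 1 read per UMI and the grey line and band at the median and the 5th to 95th percentile of 3300 other mouse genes. The abundant members lie in the band, at 6.45 to 15.9 reads per UMI, while mt-Atp6 lies below the dashed line with 273 UMIs and 160 reads.

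By UMIs, mt-Cytb made up 54.2% of member UMIs in cluster 1 and 66.9% in cluster 2, and mt-Co1 13.6% and 6.29%. The median share of members among UMIs per well was 1.27% in cluster 1 and 1.84% in cluster 2, a smaller gap than the 1.44% and 2.49% by reads.

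Across wells of a library and cluster the levels of the abundant members were weakly related to each other. The mean Spearman's rho over the 6 groups ran from 0.22 for mt-Nd4 with mt-Nd5 to 0.39 for mt-Nd1 with mt-Cytb and for mt-Nd4 with mt-Cytb. Over the 15 pairs rho ran from 0.20 to 0.56 in the 4 groups of the 3'DE libraries and from -0.03 to 0.41 in those of 3'DE-UMI. Wells of a group share a library, and these counts share a denominator and the depth of the well. By median, wells of 3'DE-UMI also held fewer mouse genes, and the part of this was not tested. For 902 genes outside the set, Spearman's rho with the ratio of member reads to other mouse reads was averaged over the 6 groups. Wells with at least 5000 other mouse reads, 2273 in all, had those reads thinned to 5000. Each gene then had a read in at least 20% of wells of each group. The ratio was followed most closely by ENSMUSG00000092341 (mean rho 0.24, range over groups 0.21 to 0.33) and ENSMUSG00000064368 (0.22, range 0.08 to 0.32). It ran most against ENSMUSG00000019505 (-0.25, range -0.39 to -0.14) and ENSMUSG00000050708 (-0.24, range -0.32 to -0.15). No symbols come with these identifiers. Genes outside the set can include other mitochondrially encoded genes, such as mt-Nd6. These were not separated from nuclear genes, so the genes named here may be of that kind.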

How the data were processed

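The data were 3 ICELL8 libraries. The deposited tables hold raw counts per gene and well: the authors made reads with the mappa software and a UMI table for 3'DE-UMI with the Drop-seq tools, on a human (hg19) and mouse (mm10) reference. The submitters' processing notes name STAR 2.7.0b and 2.4.2a. The study's methods describe downsampling of reads before counting, and whether these tables are downsampled was not known. Values were whole numbers, and reads are not independent molecules, so intervals cover counting error or the spread between libraries only.

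Species was taken from the identifier prefix. Mouse wells of all libraries were clustered (scanpy 1.11.5, Leiden) on 1000 variable genes without the members. Clustering on either of 2 sets of genes put over 99% of wells in the same clusters (99.83% and 99.87%). No doublet caller was run beyond the limit on mixed species, so mixtures of 2 mouse cells remain. The planned assignment by markers, and the lists of nuclear respiratory and mitochondrial RNA genes, could not be used since no table pairs mouse identifiers with symbols. Counts were summed per library and cluster and fitted with edgeR 4.0.16 (filterByExpr, TMM, quasi-likelihood F-test), and with DESeq2 1.42.0 as an alternative. Standard errors are the log2 difference divided by the square root of F. No label says that the libraries came from separate cultures, so p-values measure the spread between libraries, which may be technical. On simulated counts with 200 genes shifted by a log2 of 2, the fit called 66.3% of them in the cluster comparison (11724 genes), 22.0% and 40.8% in the protocol comparisons of cluster 1 (11370 genes) and 2 (11166 genes), and 21.8% in the interaction (12604 genes). Calls among unshifted genes were 5, 0, 3 and 0 in that order. The simulation held no library effect, and its shift was larger than the members' cluster differences, so these rates do not apply to them.

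All 10 members are named, with the 2 genes most like and the 2 most unlike them across wells, fewer than the planned 5 of each since they have no symbols. The members and lists were chosen with earlier results of these data known.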

Additional observations from a re-analysis of the deposited data

How the results depend on the processing

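For the protocols, no paired analysis was possible with only 1 library of 3'DE-UMI, while the clusters were compared within libraries, with the library as a block. The cluster comparison called 4709 mouse genes, but 2967 with wells thinned to 2000 reads, 2980 without the library block and 2872 to 5082 when 1 library was left out. Of the members it called 2, but 1 with library totals alone, 0 without the library block and 0 to 1 when 1 library was left out. Of all genes tested, 38.9% passed in the main fit, 39.5% with library totals alone and 26.4% without the block. With 1 library left out, 25.5% to 44.2% passed. The protocol comparison called 3 members in cluster 1, beside 11.2% of genes, but 1 with thinned wells, beside 11.5%. In cluster 2 it called 0, but 1 with library totals alone, DESeq2 or thinned wells and 3 with UMI counts. The shares of all genes called there were 2.41% in the main fit and, in that order, 2.15%, 2.83%, 3.2% and 2.81%. The interaction called 282 genes, but 47 with DESeq2, 4 with thinned wells and 7 with UMI counts. The protocol difference in share ran from -0.375 to 0.063 points in cluster 1 when a 3'DE library was left out and from 0.181 to 0.7 in cluster 2, where it turned to -0.204 with UMI counts. The log2 ratio of mt-Cytb to mt-Co1 moved from 1.17 to 1.27 with UMI counts.

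Of 284 other values of single members, 243 kept their sign and, where a test was possible, their side of the threshold. The call was lost in 13 and gained in 10, and the sign changed in 22, of which 4 are among those that gained the call. No call was turned into its opposite. Log2 differences between the clusters that changed sign were, with library totals alone, -0.16 for mt-Nd2, -0.20 for mt-Nd3 and -0.16 for mt-Nd5, and, with UMI counts, 0.02 for mt-Nd1 and -0.32 for mt-Nd3. When 1 library was left out they ran from -0.13 to 0.05 for mt-Nd1, -0.01 to 0.19 for mt-Nd2, -0.32 to 0.20 for mt-Nd3 and -0.06 to 0.20 for mt-Nd5. Protocol differences that changed sign with UMI counts were, in cluster 1 and 2, 0.85 and 1.01 for mt-Nd3, -0.28 and -0.18 for mt-Cytb, 2.31 and 2.49 for mt-Co2 and 3.51 and 4.19 for mt-Atp6, and thinned wells gave 0.05 for mt-Nd4 in cluster 2. With 1 of the 3'DE libraries left out they ran, in cluster 1, from -0.70 to 0.11 for mt-Nd4, -0.22 to 0.49 for mt-Cytb and -1.19 to 0.09 for mt-Atp6, and in cluster 2 from -0.70 to 0.30 for mt-Atp6. The fits behind these last ranges have no test. The cause of these changes was not tested. Thinned wells left the 4 sparse members untested in the cluster and protocol comparisons, and the depth of mt-Nd3, at most 27 reads in a sum, limits any statement on it.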
